A study of Homo sapiens with 3 samples.

Results

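The miR-26 and miR-101 miRNAs were examined in parental cells of 3 cancer-derived cell lines. The 7 mature miRNAs hsa-miR-26a-5p, hsa-miR-26a-1-3p, hsa-miR-26a-2-3p, hsa-miR-26b-5p, hsa-miR-26b-3p, hsa-miR-101-3p and hsa-miR-101-5p were chosen by name, not by a threshold on their values, from 2588 mature miRNAs in the deposited tables. C643 cells derive from an anaplastic thyroid carcinoma, ES-2 cells from an ovarian carcinoma and Huh-7 cells from a hepatocellular carcinoma. All were parental cells without the MIR21 deletion that the study made in these lines, grown in DMEM with 10% fetal bovine serum and collected 48 hours after seeding. Each line was represented by 1 small RNA library made from 50 ng of total RNA, so no difference between lines has a replicate check, and a line cannot be told apart from its library.

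miRNAs are cut from hairpin precursors, and each arm of the hairpin gives a product, 5p or 3p. Usually the product of only one arm is kept by Argonaute proteins and guides repression of mRNAs that pair with its seed, bases 2 to 8. miR-26a, miR-26b and miR-101 are known for repressing EZH2, the histone methyltransferase of the Polycomb repressive complex, and are regarded as tumor suppressors because they are often low in tumors. In liver cancer both miR-26 and miR-101 have long been studied as lost growth-restraining miRNAs. No mRNA or protein was measured in these libraries, so EZH2 itself was not analysed here.

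The mature sequences, from RefSeq (GRCh38.p14), show which of the 7 products can share targets. They are printed 5′ to 3′ with the seed in capitals.
miR-26a-5p: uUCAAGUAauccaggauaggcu
miR-26b-5p: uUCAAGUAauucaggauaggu
miR-26a-1-3p: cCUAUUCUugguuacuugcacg
miR-26a-2-3p: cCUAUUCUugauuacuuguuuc
miR-26b-3p: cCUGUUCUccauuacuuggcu
miR-101-3p: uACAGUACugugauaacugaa
miR-101-5p: cAGUUAUCacagugcugaugcu

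miR-26a-5p and miR-26b-5p carried the same seed and were identical at 19 of 21 compared positions. They differed by C11U and C21U, counted from the 5′ end with the base of miR-26a-5p first. The 3p products of the miR-26a genes shared a seed with each other and matched at 17 of 22 positions, with G11A as the only difference in the first 18 bases. miR-26b-3p had another seed, by A4G relative to miR-26a-1-3p. Neither arm of miR-101 shared a seed with a miR-26 product.

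The 5 precursor genes lie on 5 chromosomes (GENCODE 29, GRCh38). MIR26A1 lies on chromosome 3 at 37969404 to 37969480, plus strand, within CTDSPL. MIR26A2 lies on chromosome 12 at 57824609 to 57824692, minus strand, within CTDSP2. MIR26B lies on chromosome 2 at 218402646 to 218402722, plus strand, within CTDSP1. These hosts encode related phosphatases that act on the tail of RNA polymerase II, and each miRNA is intronic and on the strand of its host. MIR101-2 lies on chromosome 9 at 4850297 to 4850375, plus strand, in an intron of RCL1, a gene of ribosomal RNA processing, and an exon of the antisense gene AL158147.1 covers it on the other strand. MIR101-1, on chromosome 1 at 65058434 to 65058508, minus strand, overlaps no other annotated gene.

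Annotated miRNAs took 8183100 reads in C643, 2173587 in Huh-7 and 1663181 in ES-2. Levels are given as a share, the reads of a miRNA in percent of all miRNA reads of its library, with a Wilson 95% confidence interval that covers counting error only. As a check of the labels, miR-122-5p, the hepatocyte miRNA, had 288469 reads in Huh-7, 468 in C643 and 6 in ES-2. Both hepatocyte markers together held 14.2% in Huh-7 and at most 0.0126% in the other lines. The sum of the 5 epithelial miR-200 family markers was also highest in Huh-7, with 0.382% against 0.00125% in C643 and 0.00523% in ES-2. Most of the Huh-7 sum was miR-200b-3p, at 0.302%, and this miRNA made up the whole sum of C643. Only miR-141-3p went the other way, with a share of 0.000421% for ES-2 above 0.000184% for Huh-7, and these intervals overlapped. The 4 muscle and fibroblast markers together reached at most 0.255%, in C643, nearly all from miR-143-3p with 20687 reads. The others were higher by share in Huh-7 than in C643. miR-145-5p held 0.00207% against 0.00189%, miR-1-3p had 23 reads against 10 and miR-133a-3p 5 against 0. The 5 blood cell markers were at 0.0481% in ES-2, nearly all from the arms of miR-142, and at most 0.00033% elsewhere. Whether these differences in markers bear on miR-26 or miR-101 was not tested.

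The seed-sharing miRNAs miR-26a-5p and miR-26b-5p were most abundant in Huh-7. miR-26a-5p was the leading member in each line, with 73061 reads in C643, 64208 in Huh-7 and 21412 in ES-2. Its share was 0.893% in C643 (95% CI 0.886 to 0.899), 2.95% in Huh-7 (2.93 to 2.98) and 1.29% in ES-2 (1.27 to 1.30). Among all miRNAs it ranked 20 in C643, 4 in Huh-7 and 13 in ES-2. The intervals of the lines did not overlap, and Huh-7 exceeded C643 by 3.31-fold (3.27 to 3.34) and ES-2 by 2.29-fold (2.26 to 2.33). On the scale of the deposited values these ratios were 2.11 and 1.22. The log2 difference of deposited values (C643 minus Huh-7) was -1.08 for miR-26a-5p, against a median of -0.21 over 399 miRNAs. For ES-2 minus Huh-7 it was -0.28, against a median of -0.54 over 390 miRNAs. The excess of miR-26a-5p in Huh-7 over ES-2 was thus no larger than that of the median miRNA.

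miR-26b-5p had 17087 reads in C643, 20213 in Huh-7 and 3609 in ES-2. Its share was 0.209% in C643 (0.206 to 0.212), 0.930% in Huh-7 (0.917 to 0.943) and 0.217% in ES-2 (0.210 to 0.224). C643 and ES-2 thus had overlapping intervals, although ES-2 exceeded C643 by 1.039-fold (1.002 to 1.077). Huh-7 stood above C643 by 4.45-fold (4.36 to 4.55) and above ES-2 by 4.29-fold (4.14 to 4.44). On the deposited scale the folds of Huh-7 over C643 and ES-2 were 2.84 and 2.27. The log2 differences, -1.51 and -1.18, lay farther toward Huh-7 than the medians of all compared miRNAs, -0.21 and -0.54.

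The proportion of the miR-26 5p products therefore differed between the lines. miR-26a-5p exceeded miR-26b-5p by 4.28-fold in C643 (4.21 to 4.35), 3.177-fold in Huh-7 (3.13 to 3.23) and 5.93-fold in ES-2 (5.73 to 6.15), a ratio within a library that needs no scaling. Together they held 1.10% of reads in C643, 3.88% in Huh-7 and 1.504% in ES-2. The other miRNAs with their seed, miR-1297 and miR-4465, had 0 reads in each library, so among the 2281 of 2588 miRNAs with a RefSeq sequence, miR-26a-5p and miR-26b-5p alone gave reads with this seed. The limit of 3 reads corresponds to 3.67e-05% in C643, 0.000138% in Huh-7 and 0.00018% in ES-2.

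miR-101-3p, the guide of miR-101, was less abundant. It had 8477 reads in C643, 2791 in Huh-7 and 2404 in ES-2. Its share was 0.104% in C643 (0.101 to 0.106), 0.128% in Huh-7 (0.124 to 0.133) and 0.145% in ES-2 (0.139 to 0.150). The order was thus ES-2, Huh-7 and C643, with no overlap of the intervals, and the lines at either end lay 1.40-fold apart (1.33 to 1.46). On the deposited scale Huh-7 was the lowest line and ES-2 the highest, 2.12-fold apart. This was about as far as the 2.11-fold of miR-26a-5p between Huh-7 and C643. ES-2 and C643 lay 1.68-fold apart on that scale. The ranks of miR-101-3p were 70 in C643, 66 in Huh-7 and 51 in ES-2.

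miR-101-3p did not follow the miR-26 products into Huh-7. The summed miR-26 5p products exceeded it by 10.6-fold in C643 (10.4 to 10.9), 30.2-fold in Huh-7 (29.1 to 31.4) and 10.4-fold in ES-2 (9.98 to 10.9). No other miRNA among those with a RefSeq sequence shares its full seed. miR-144-3p, which shares bases 2 to 7 with it, had 0 reads in each line.

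**Figure D1:**
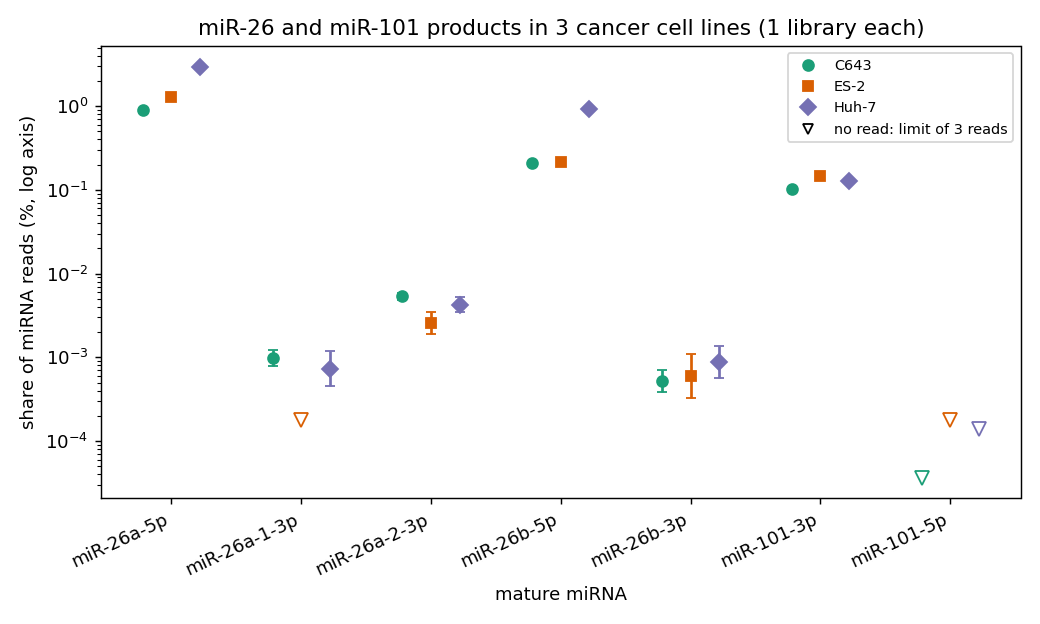
Share of miRNA reads in percent (log axis) of the 7 mature products in C643, ES-2 and Huh-7, with Wilson 95% intervals of counting error as bars (1 library per line). Open triangles mark products without a read at the limit of 3 reads. miR-26a-5p and miR-26b-5p are highest in Huh-7, at 2.95% and 0.930%, while miR-101-3p stays between 0.104% and 0.145% and miR-101-5p has no read.

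The minor arms were measured because only the 3p products of miR-26a tell its genes apart. miR-26a-2-3p had 437 reads in C643, 92 in Huh-7 and 43 in ES-2. These gave 0.00534% in C643 (0.00486 to 0.00586), 0.00423% in Huh-7 (0.00345 to 0.00519) and 0.00259% in ES-2 (0.00192 to 0.00348), so C643 and ES-2 did not overlap while Huh-7 overlapped both. The ratio of C643 to Huh-7 was 1.26 (1.01 to 1.60). In contrast to its 5p partner, this product was thus not highest in Huh-7.

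miR-26a-1-3p had 80 reads in C643, 16 in Huh-7 and 0 in ES-2. Its share was 0.000978% in C643 (0.000786 to 0.00122) and 0.000736% in Huh-7 (0.000453 to 0.0012), which overlapped. The 0 reads of ES-2 allow a share of up to 0.000231% by the Wilson interval. miR-26b-3p was also rare, with 43 reads in C643, 19 in Huh-7 and 10 in ES-2. Its share was 0.000525% in C643 (0.00039 to 0.000708), 0.000874% in Huh-7 (0.00056 to 0.00137) and 0.000601% in ES-2 (0.000327 to 0.00111), with overlap among all lines. At this depth no difference in miR-26b-3p was detectable.

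Most 3p reads of miR-26a came from MIR26A2 on chromosome 12. This gene gave 84.5% of them in C643 (exact 95% interval 81.1 to 87.5), 85.2% in Huh-7 (77.1 to 91.3) and all 43 in ES-2 (91.8 to 100). The interval of ES-2 lay above both others, narrowly so for Huh-7, and rested on few reads. In Huh-7 and C643 the product of MIR26A2 exceeded that of MIR26A1 by 5.75-fold (3.36 to 10.5) and 5.46-fold (4.30 to 7.02). Whether the reads of these rare minor arms measure the output of each gene was not tested.

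The 5p reads did not show this bias. Of the miR-26a-5p reads, the chromosome 12 locus was listed with 50.1% in C643, 50.3% in Huh-7 and 49.6% in ES-2. Each exact interval included 50. The mature sequence is the same in both hairpins, so a read of miR-26a-5p cannot be assigned to a gene by its bases. For miR-101-3p, also the same in both hairpins, MIR101-2 on chromosome 9 was listed with 51.0% of reads in C643, 51.4% in Huh-7 and 51.0% in ES-2, with intervals that again included 50. The 5p split of miR-26a and the split of miR-101-3p are therefore no measure of the output of each gene.

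**Figure D2:**
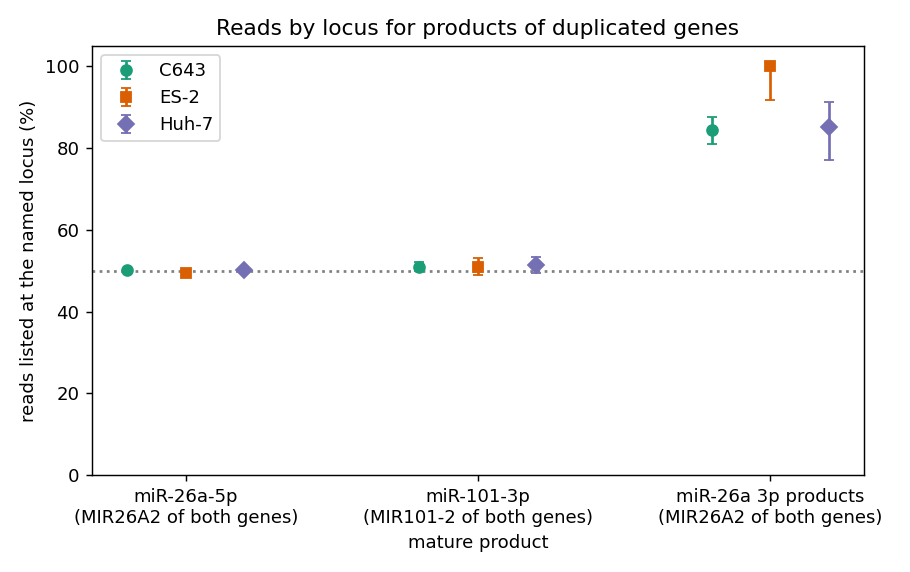
Percentage of reads listed at MIR26A2 or at MIR101-2 out of both genes of the product, in each line, with exact 95% binomial intervals. miR-26a-5p and miR-101-3p lie at 49.6% to 51.4%, whereas the locus-specific 3p products of miR-26a come from MIR26A2 by 84.5% or more.

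Each precursor strongly favored its known guide arm. For miR-26a the 5p product exceeded the summed 3p products by 141-fold in C643 (exact 95% interval 130 to 154), 595-fold in Huh-7 (492 to 725) and 498-fold in ES-2 (370 to 688). For miR-26b the 5p product exceeded the 3p product by 397-fold in C643 (295 to 549), 1064-fold in Huh-7 (681 to 1767) and 361-fold in ES-2 (196 to 753). C643 thus stood below the other lines for miR-26a, and Huh-7 above C643 for miR-26b, whereas for both precursors Huh-7 and ES-2 had overlapping intervals.

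miR-101-5p had 0 reads in each library. Against a floor of 3 reads per library, miR-101-3p was at least 2826-fold higher in C643, at least 930-fold in Huh-7 and at least 801-fold in ES-2. These bounds scale with the reads of miR-101-3p, which come from both genes, and set no order of the lines. Taking miR-101-3p only from the locus with more reads, MIR101-2 in each line, they were 1442 in C643, 478 in Huh-7 and 409 in ES-2. Whether the 0 reads reflect the arm itself or the way it was annotated and counted was not tested. The sequence of miR-101-5p occurs in the hairpin of MIR101-1 only, and the 5p product of MIR101-2 was not analysed here. The bounds from 1 locus thus set reads listed at MIR101-2 against the 5p arm of MIR101-1. MIR101-1 was listed with somewhat fewer miR-101-3p reads, 4150 in C643, 1356 in Huh-7 and 1177 in ES-2.

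Over all precursors with at least 1000 reads of either arm, the major arm exceeded the minor one by a median of 47.9-fold in C643 (106 precursors), 102-fold in Huh-7 (90) and 104-fold in ES-2 (65), with the same floor. More asymmetric than miR-26a were 37 precursors in C643, 13 in Huh-7 and 14 in ES-2. For miR-26b these were 23, 9 and 18 precursors in the same order. The sets of precursors differ between the lines, because 1000 reads are a smaller share of a deeper library. These medians and counts thus describe each library and do not order the lines.

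The shift of the miR-26a arms was set against all precursors with at least 10 reads of each arm in both libraries. The asymmetry of miR-26a exceeded that of C643 by 3.52-fold in ES-2 and by 4.21-fold in Huh-7. A shift of at least 2-fold toward ES-2 was seen in 26.5% of 83 precursors, against 16.9% toward C643. Toward Huh-7 it was seen in 38.7% of 93 precursors, against 17.2% toward C643. The median shift of all precursors went the same way, by -0.37 and -0.43 on the log2 scale for C643 relative to ES-2 and to Huh-7. A shift this way was thus also seen in many other precursors. C643 was also the deepest library, and the part of depth in these shifts was not tested.

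For miR-26b the asymmetry was 2.68-fold higher in Huh-7 than in C643, and 1.10-fold higher in C643 than in ES-2. Between ES-2 and Huh-7, 18.2% of 66 precursors were at least 2-fold more asymmetric in Huh-7 and 9.09% in ES-2. miR-26b was in the former group with 2.95-fold, which rested on 10 reads of miR-26b-3p in ES-2, and miR-26a, at 1.19-fold, was in neither. With at least 50 reads of each arm required, neither miR-26b in any comparison nor miR-26a in those with ES-2, where its 3p products had 43 reads, could be evaluated.

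**Figure D3:**
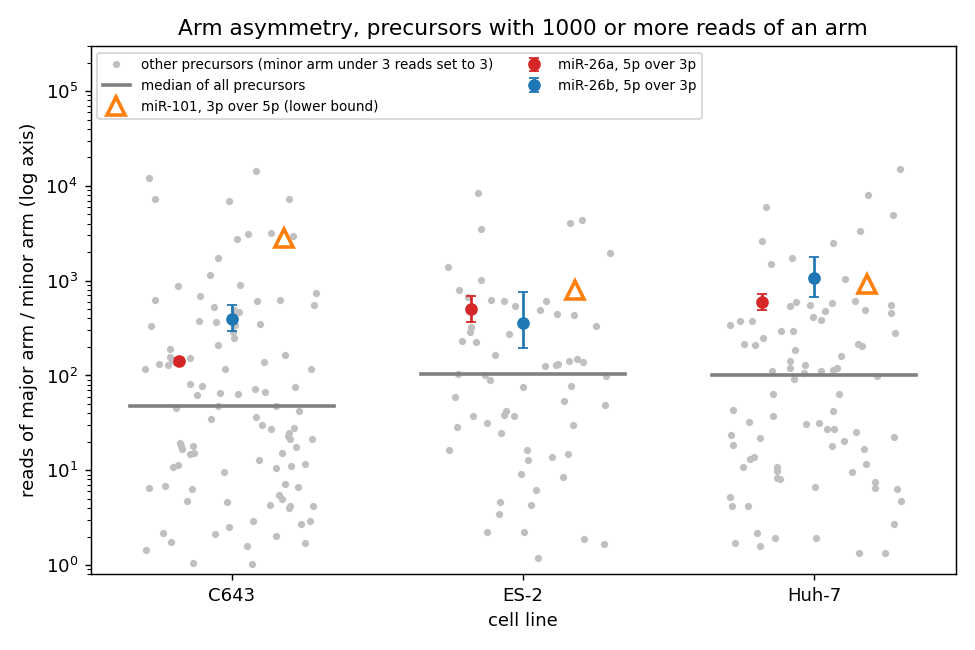
Ratio of major to minor arm reads (log axis) for miR-26a, miR-26b and miR-101 in each line, with exact 95% intervals, over other precursors with 1000 or more reads of an arm as grey points and the median of all as grey lines. Open triangles are lower bounds of miR-101, which had no 5p read. The miR-26a ratio is lowest in C643 at 141. The median of all precursors there is 47.9, over a larger set of precursors (106) than in Huh-7 (90) or ES-2 (65).

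The lines were next compared on the scale of the deposited values, on which a fold also depends on a factor between the libraries. Only ES-2 and Huh-7 share a table, and C643 was set against them across tables that may have been normalized separately. miRNAs at 10 or more in either library were compared as log2(value + 1), which understates folds of low miRNAs, and a difference of 2 on this scale counted as 4-fold. Of the 7 members, miR-26a-5p, miR-26a-2-3p, miR-26b-5p and miR-101-3p passed this filter in each comparison. miR-26a-1-3p and miR-26b-3p stayed below 10 in every library, and miR-101-5p was at 0.

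Between ES-2 and Huh-7, 0 of the 4 members were 4-fold apart, while 19.5% of 390 miRNAs were at least 4-fold above Huh-7 in ES-2 and 27.7% as far below. The deposited value of miR-26a-5p was 18079 in Huh-7 against 14864 in ES-2, a log2 difference (ES-2 minus Huh-7) of -0.28. That of miR-26b-5p was 5691 in Huh-7 against 2505 in ES-2, a difference of -1.18. In the opposite direction, miR-101-3p was at 1669 in ES-2 against 786 in Huh-7, a difference of 1.09. miR-26a-2-3p had 29.8 in ES-2 against 25.9 in Huh-7, a difference of 0.20. The median of the absolute differences was 0.68 for the 4 members and 1.79 for all miRNAs.

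The scale changed the size of these differences and, for miR-26a-2-3p, the direction. Values in Huh-7 sum to less than in ES-2, and expressing both as shares moves each log2 ratio by -0.92. By share, miR-26b-5p passed 4-fold in favor of Huh-7, as did 38.2% of all 390 miRNAs, and miR-26a-2-3p was 1.64-fold higher in Huh-7 (1.13 to 2.41). miR-101-3p remained higher in ES-2 on both scales, by 2.12-fold as deposited and 1.13-fold by share (1.07 to 1.19). miR-26a-5p and miR-26b-5p were higher in Huh-7 on both.

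C643 and ES-2 differed least. 0 of the 4 members were 4-fold apart, against 15.4% of 351 miRNAs with C643 as the higher line and 10.8% with ES-2. The log2 differences (C643 minus ES-2) were -0.80 for miR-26a-5p, at 8565 in C643, and -0.32 for miR-26b-5p, at 2003 in C643. They were -0.75 for miR-101-3p, at 994 in C643, and 0.76 for miR-26a-2-3p, at 51.2 in C643. On this scale the guide products were thus all lower in C643 and the minor product higher. Shares move each log2 ratio by 0.27 and turned none of these directions, although the intervals of miR-26b-5p overlapped by share.

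Between C643 and Huh-7, 0 of the 4 members were 4-fold apart as deposited, where 22.6% of 399 miRNAs passed this fold toward C643 and 25.1% toward Huh-7. miR-26a-5p had a log2 difference (C643 minus Huh-7) of -1.08 and miR-26b-5p of -1.51, both higher in Huh-7. miR-101-3p was at 0.34, slightly higher in C643, but by share it was 1.24-fold higher in Huh-7 (1.19 to 1.29), so its order in these lines rested on the scaling, which moves each log2 ratio by -0.65. miR-26a-2-3p had a difference of 0.96. By share, miR-26b-5p passed 4-fold in favor of Huh-7, as did 32.1% of all miRNAs.

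**Figure D4:**
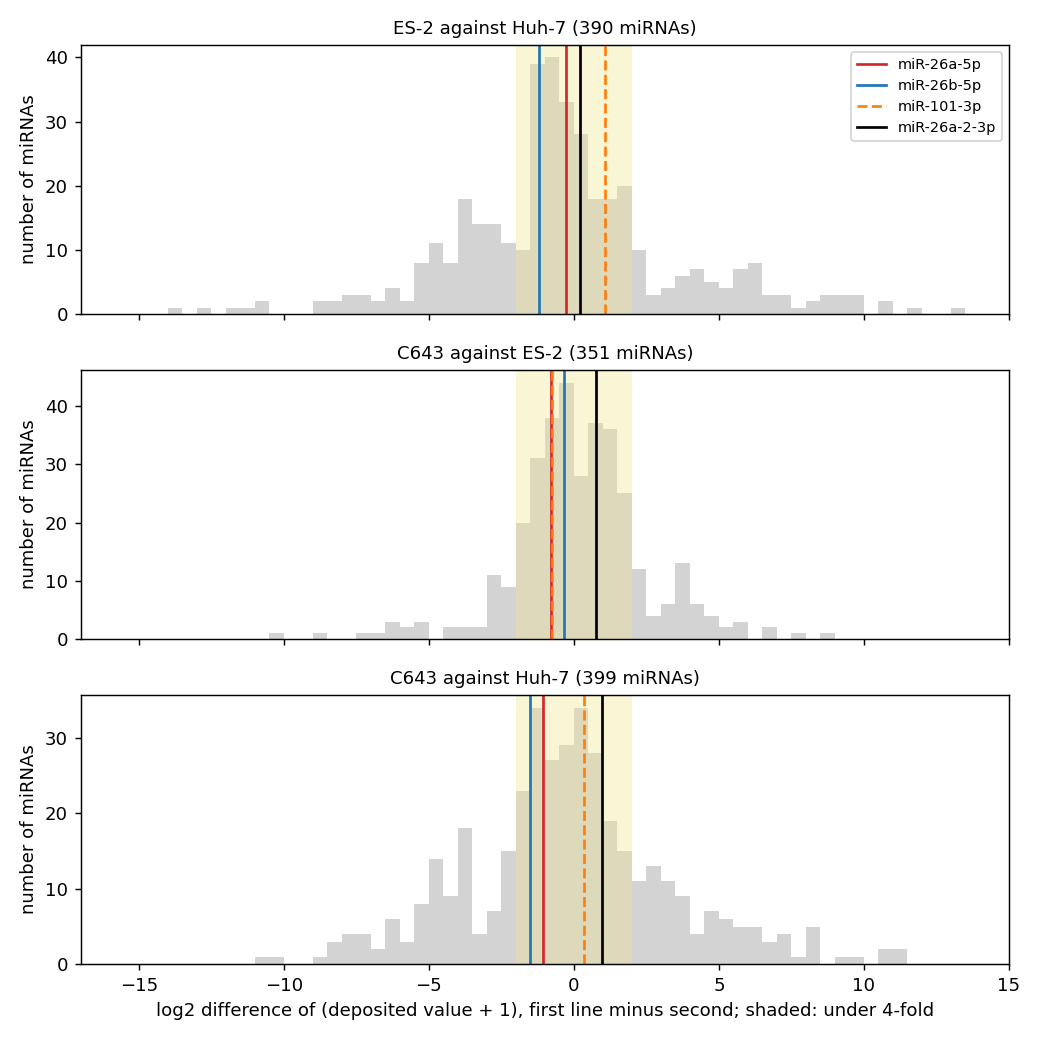
Histograms of the log2 difference of deposited values (value + 1) between each pair of lines over all miRNAs at 10 or more in either, with vertical lines for the 4 members that passed this filter. The shaded band marks differences under 4-fold. All 4 members lie inside the band in each comparison, miR-26b-5p farthest toward Huh-7 at -1.18 and -1.51.

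An exact binomial test of the reads in Huh-7 and ES-2, adjusted by Benjamini-Hochberg at a level of 0.05 and chosen after the data had been seen, compares these 2 libraries and not the lines. The split of reads expected without a difference followed the factors of the deposited values, so the calls hold on that scale. It called 53.8% of 390 miRNAs for Huh-7 and 34.4% for ES-2. miR-26a-5p and miR-26b-5p were among the former and miR-101-3p among the latter, and miR-26a-2-3p was not called. The test was not run by share, where miR-26a-2-3p was 1.64-fold higher in Huh-7 (1.13 to 2.41). Most miRNAs were thus called, members or not.

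Other miRNAs reported to target EZH2 were listed to see whether they changed with miR-26. They followed no common pattern. let-7a-5p, a member of the let-7 family, held 13.8% in C643, 0.488% in Huh-7 and 11.9% in ES-2. Its relative miR-98-5p held 0.353%, 0.00317% and 0.150% in this order. These were lowest in Huh-7, where miR-26a-5p and miR-26b-5p were highest. miR-25-3p, of the miR-106b cluster, held 0.440% in C643, 1.005% in Huh-7 and 0.265% in ES-2. miR-30d-5p held 1.58% in C643, 2.25% in Huh-7 and 1.22% in ES-2, so both were highest in Huh-7 by share, although as deposited miR-30d-5p in Huh-7 was exceeded 1.02-fold by ES-2 and 1.10-fold by C643.

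miR-138-5p had 264 reads in C643, 0 in Huh-7 and 391 in ES-2. miR-214-3p, a miRNA of mesenchymal cells, had 1050 reads in C643, 5 in Huh-7 and 0 in ES-2. miR-124-3p, a neuronal miRNA, and miR-144-3p, an erythroid one, had 0 reads in every line. Between ES-2 and Huh-7, 5 of these 8 miRNAs passed the filter, and 3 of the 5, let-7a-5p, miR-98-5p and miR-138-5p, were at least 4-fold apart in favor of ES-2 as deposited and 0 in favor of Huh-7, beside 19.5% and 27.7% of all miRNAs. The 8 miRNAs together held 16.2% of reads in C643, 3.75% in Huh-7 and 13.6% in ES-2, mainly let-7a-5p outside Huh-7, whereas the 7 miR-26 and miR-101 products held 1.21%, 4.02% and 1.65%. In Huh-7 the latter sum thus exceeded the former.

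**Figure D5:**
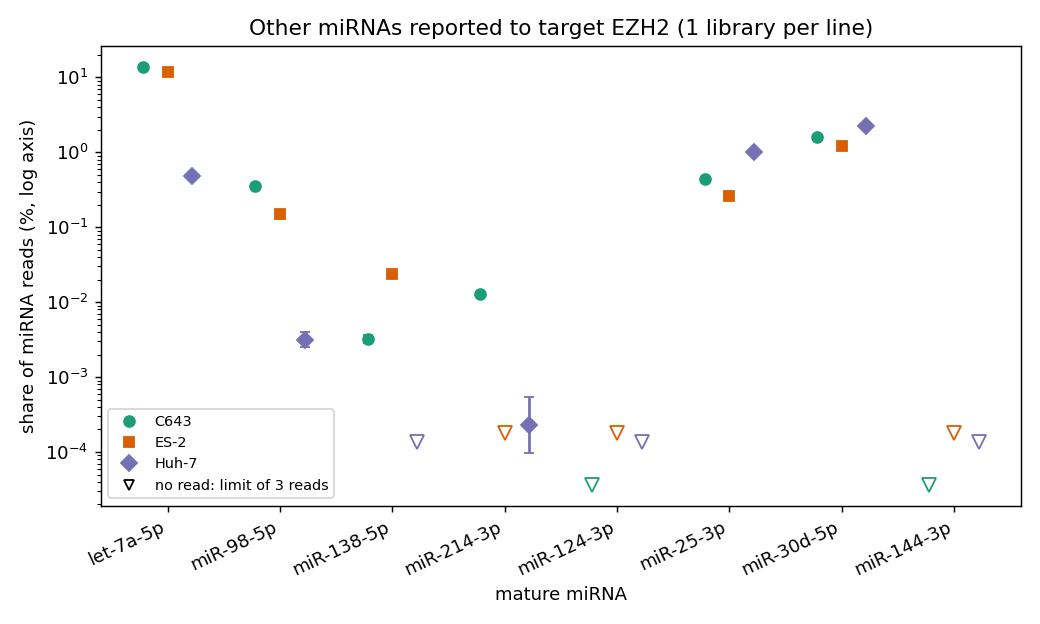
Share of miRNA reads in percent (log axis) of 8 further miRNAs reported to target EZH2 in the 3 lines, with Wilson 95% intervals and open triangles at the limit of 3 reads for miRNAs without a read. let-7a-5p falls from 13.8% in C643 and 11.9% in ES-2 to 0.488% in Huh-7, and miR-124-3p and miR-144-3p have no read in any line.

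miR-21-5p, the miRNA that the study set out to inhibit, exceeded the sum of the 7 members by 23.6-fold in C643 (23.5 to 23.8), 8.29-fold in Huh-7 (8.23 to 8.34) and 17.1-fold in ES-2 (16.9 to 17.3). The members thus came nearest to it in Huh-7.

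Profiles over the 3 libraries were compared with those of the other 128 miRNAs with at least 100 reads in each. The measure was the root mean square difference of the log2 share, each miRNA centered on its own mean, and it describes 3 points only. Nearest to miR-26a-5p were miR-744-5p at 0.0484, miR-423-3p at 0.0532, miR-18a-3p at 0.143, miR-615-3p at 0.163 and miR-374a-5p at 0.166, against a median of 0.713 over all candidates. miR-423-3p held 0.5004% in C643, 1.77% in Huh-7 and 0.705% in ES-2, below miR-26a-5p in each line.

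Nearest to miR-26b-5p were miR-191-5p at 0.0603, miR-146b-5p at 0.0741, miR-320a at 0.0957, miR-1180-3p at 0.117 and miR-15a-5p at 0.134, with a median of 0.850. miR-191-5p held 0.220% in C643, 1.09% in Huh-7 and 0.237% in ES-2, close to miR-26b-5p in each line. Nearest to miR-101-3p were miR-342-3p at 0.132, miR-92a-1-5p at 0.162, miR-1301-3p at 0.194, miR-330-3p at 0.214 and miR-21-5p at 0.218, with a median of 0.857.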

How the data were processed

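Small RNA libraries (NEXTflex kit, Illumina HiSeq) were examined for parental C643, Huh-7 and ES-2 cells, 1 per line. The submitters' processing notes name cutadapt 1.14, Bowtie2 2.3.3, SAMtools 1.5, featureCounts 1.5.3, edgeR 3.18.1 and build hg38. The miRNA annotation version and the treatment of reads with several loci are not given in the sources used here. The deposited values, named CPM by the authors, are a signal of reads per locus times 1 factor per library. The 2 tables list 2813 loci, and their columns add up to 959302 for C643, 612015 for Huh-7 and 1154552 for ES-2. Division by the value of 1 read gave whole reads (within 0.001) for 100% of values above 0 in each library. Reads may be PCR copies, and no interval or floor holds more than counting error.

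Loci of the same mature miRNA were added. Shares, exact ratio intervals, 4-fold calls and arm ratios were computed with Python 3.11.15, pandas 2.3.3 and scipy 1.17.1. The arms of miR-26a were its 5p product and the sum of its 3p products. A product with fewer than 3 reads was set to 3 for arm ratios. The read test was tested on simulated data and was added after the data had been seen. Sequences were found in RefSeq for 2281 of 2588 miRNAs and for all 7 members. Members and lists were chosen with earlier results of these data known. Named were the members, 8 further miRNAs reported to target EZH2, miRNAs with the seed of miR-26a-5p or miR-101-3p, the 5 nearest profiles of each guide product, miR-21-5p and cell type markers. Alternatives changed the denominator, loci, pseudocount, filter, fold threshold and scaling.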

Additional observations from a re-analysis of the deposited data

How the results depend on the processing

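No paired analysis was possible because there was 1 library per line and no replicate number. Values are listed for C643, then ES-2, then Huh-7, and the direction between lines of each guide product by share was kept except where named. With 1000000 as denominator miR-26a-5p held 0.856%, 1.49% and 1.81%, miR-26b-5p 0.200%, 0.251% and 0.569%, and miR-101-3p 0.0994%, 0.167% and 0.0786%, so miR-101-3p was then lower in Huh-7 than in C643. Without miR-21-5p in the denominator they held 1.25%, 1.79% and 4.43%, 0.293%, 0.302% and 1.39%, and 0.145%, 0.201% and 0.192%. With 1 locus per mature miRNA they held 0.538%, 0.760% and 1.63%, 0.251%, 0.254% and 1.02%, and 0.0635%, 0.0864% and 0.0724%. The arm ratio of miR-26a was then 70.8, 251 and 299 and the bound of miR-101 1442, 409 and 478, each from the locus with more reads. With only the more abundant 3p product the miR-26a ratio in C643 was 167. Restricting the denominator to miRNAs at 10 or more moved no share of a guide product beyond its interval.

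The members 4-fold apart became 1 higher in Huh-7 than in ES-2 (miR-26b-5p) by share and 1 without a filter (miR-26a-1-3p), and 1 higher in C643 than in ES-2 without a filter, again miR-26a-1-3p, which had 0 reads in ES-2. By share 1 was also higher in Huh-7 than in C643. At 2-fold 1 favored ES-2 (miR-101-3p) and 1 Huh-7 (miR-26b-5p), and 2 were higher in Huh-7 than in C643. The read test called 1 member for ES-2 and 2 for Huh-7, and 134 and 210 miRNAs.

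Of all miRNAs, a filter at 100 left 48 and 42 in favor of ES-2 and Huh-7, 18 and 16 in favor of C643 and ES-2, and 54 and 44 in favor of C643 and Huh-7. Without a filter the counts were 180 for Huh-7 over ES-2, 123 and 82 for C643 and ES-2, and 141 and 173 for C643 and Huh-7. A pseudocount of 10 gave 60 for Huh-7 over ES-2, 22 and 24 for C643 and ES-2, and 55 for Huh-7 over C643. At 2-fold 115 were higher in C643 and 89 in ES-2, and 157 in Huh-7 over C643. At 8-fold 18 were higher in ES-2 than in C643. A pseudocount of 0.5 and a median ratio set to 0 moved none of these counts by more than 1.5 times. By share, 149 in place of 108 miRNAs were higher in Huh-7 than in ES-2.

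Precursors with a shift in arms numbered, for ES-2 and Huh-7, 2 and 1 at 50 reads of each arm and 1 and 3 at 4-fold, in place of 6 and 12. For C643 and ES-2 they numbered 4 and 11 at 50 reads and 3 and 7 at 4-fold, and for C643 and Huh-7 8 and 20, and 4 and 17. Requiring at least 1000 reads in each library left 53 candidates for the nearest profiles in place of 128. Of the 5 nearest profiles of miR-26a-5p, miR-26b-5p and miR-101-3p, 1, 2 and 1 were kept. The profiles lost had fewer than 1000 reads in at least 1 library. The lists of miR-26a-5p and miR-26b-5p then had 4 miRNAs in common (miR-128-3p, miR-423-5p, miR-103a-3p and miR-320a), against 0 with at least 100 reads. Depth limited the 3p products of miR-26, of which ES-2 had 53 reads in all.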

Other observations

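Few abundant precursors lacked reads of an arm in every library. Of 49 precursors with at least 1000 reads of an arm in each library, 3 had 0 reads of the other arm in all libraries. Apart from miR-101 these were miR-103a, with 36291 reads of the 3p arm in C643, 44910 in Huh-7 and 10517 in ES-2, besides miR-186, with 21710, 9922 and 1883 reads of the 5p arm. The latter pair was picked with its values in view, and the cause was not tested.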
